A study of Mus musculus with 4 samples.

Results

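Imprinted genes are read mainly from 1 parental copy, and DNA methylation set in the egg or the sperm determines which. Many of them govern growth: by background, several paternally expressed genes favour growth and several maternally expressed genes restrain it. In pancreatic islets they are known for roles in beta cell mass, and the locus of Dlk1 and Meg3 has been linked to diabetes. Here 10 of them were followed, 3 expressed from the maternal copy (Meg3, H19 and Cdkn1c) and 7 from the paternal copy (Dlk1, Igf2, Peg3, Peg10, Plagl1, Rasgrf1 and Mest). All gene probes of the arrays were taken whose transcript accession maps to one of these symbols, which gave 19 probes among 56605 gene probes (10 genes among 22911 that have a named probe). The genes were chosen with earlier results of these data known.

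The 4 samples were total RNA of mouse pancreatic islet cells, dispersed after islets had been picked by hand from collagenase-digested pancreas. The labels describe C57BL/6 males, 60 weeks old, with 4 littermates as the source. The cells were kept ex vivo for 24 h with a peptide at 10 μM. A peptide of scrambled sequence was given to 2 samples (scrambled replicates 1 and 2), and MOTS-c, a peptide encoded in the mitochondrial 12S rRNA gene, was given to the other 2 (MOTS-c replicates 2 and 3, numbered as in the sample titles). No sample was untreated, and the labels do not say which animal gave which array, so that p-values measure only the spread between these arrays. The comparison asks how MOTS-c changed the transcripts of aged islet cells.

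Each sample was hybridized to 1 one-color Agilent array, and the 4 arrays lay on 1 slide. Between 61.6% and 65.0% of gene spots per array were flagged well above background and 0 were saturated. MOTS-c replicate 3 stood apart from the other arrays on the first principal component, with a score of 51.0 against −34.4 to −5.03, and 33.3% of all probes had their lowest value on it. The arrays went against their labels in sex and in some markers of the cells. Y chromosome transcripts were read by 7 probes of 4 genes (Uty, Kdm5d, Ddx3y and Eif2s3y), which cleared the background flag in 0 of 28 readings, with signals of at most 1.52 times the local background. The probe of Xist, the RNA that coats the inactive X chromosome, read 23.7 to 33.5 times its background and was well above it on all 4 arrays. Of the markers of the labelled cell type, the probes of Ins1, Ins2, Iapp, Mafa, Pdx1, Nkx6-1, Gcg and Sst were well above background on all 4 arrays. Mafa read 93.7 to 113 times background. The probe of Slc2a2, the glucose transporter of beta cells, was well above background on 3 arrays, at 1.31 to 2.30 times background. That of Ucn3, a marker of mature beta cells, did not pass the filter, at 1.03 to 1.46 times. By background, islet cells of aged mice seldom divide. The markers of dividing cells nevertheless read 267 to 585 (Mki67), 445 to 651 (Top2a) and 467 to 535 (Ccnb1) times background over the 4 arrays. Both groups shared these departures from the labels, so no array could be left out for them, and their part in the results was not tested.

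To show what lies next to the genes on which the results turn, the 250 bases before 4 start sites are printed 5′ to 3′ on the strand of the gene, from RefSeq on build GRCm38.p6, with each CpG, the site of DNA methylation, in capitals. Both listed starts of Meg3 are given because its probes fell into a pair for each of 2 transcripts, Plagl1 because one of its probes had the largest positive difference among the members, and Mest because imprinting at its promoter is well known. The first start of Meg3 follows chr12:109540746-109540995 and the other chr12:109545148-109545397, the start of Plagl1 follows chr10:13090582-13090831, and that of Mest follows chr6:30737800-30738049, all on the plus strand.
Meg3, first start: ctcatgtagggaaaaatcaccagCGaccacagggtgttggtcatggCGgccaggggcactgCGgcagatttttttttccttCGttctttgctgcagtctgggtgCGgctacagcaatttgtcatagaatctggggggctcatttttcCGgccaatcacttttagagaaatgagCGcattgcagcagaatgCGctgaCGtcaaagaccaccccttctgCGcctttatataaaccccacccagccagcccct
Meg3, other start: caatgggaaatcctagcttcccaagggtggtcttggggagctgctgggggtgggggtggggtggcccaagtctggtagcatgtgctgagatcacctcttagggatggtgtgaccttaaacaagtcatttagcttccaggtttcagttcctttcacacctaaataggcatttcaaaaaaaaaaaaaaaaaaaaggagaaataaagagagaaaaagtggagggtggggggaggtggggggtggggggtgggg
Plagl1: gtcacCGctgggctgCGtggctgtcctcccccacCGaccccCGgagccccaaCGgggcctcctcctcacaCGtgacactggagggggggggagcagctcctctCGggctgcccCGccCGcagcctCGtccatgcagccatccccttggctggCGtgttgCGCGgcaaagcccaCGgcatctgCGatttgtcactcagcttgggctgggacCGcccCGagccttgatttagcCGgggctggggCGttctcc
Mest: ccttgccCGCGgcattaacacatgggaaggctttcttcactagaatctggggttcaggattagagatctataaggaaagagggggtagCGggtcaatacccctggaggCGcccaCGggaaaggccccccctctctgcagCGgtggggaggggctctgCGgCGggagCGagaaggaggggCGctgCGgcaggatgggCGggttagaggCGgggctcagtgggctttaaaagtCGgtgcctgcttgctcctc
The first Meg3 window held 10 CpGs and the other 0, the Plagl1 window 19 and the Mest window 14. Over all 32851 windows of 27025 genes the median was 6, and over the 13 windows listed for 7 of the members it was 10. TGCCGC, the recognition motif of ZFP57, which guards imprints, was searched on both strands. It stood in the first Meg3 window, the Plagl1 window and 2 Mest windows that overlap each other, that is in 4 of 13 member windows (30.8%) against 8.68% of all windows. A match of these letters is a description of the window and not evidence of binding. The tables do not say from which start each array transcript begins, nor where in it a probe lies.

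All values from here on are log2 signals after quantile normalization, in which 1 unit is a doubling, and a difference is MOTS-c minus scrambled. They can be compared between arrays for 1 probe but not between probes. Of the 19 probes, 17 passed the filter of at least 2 arrays well above background, and all 17 passed it on all 4 arrays (the plot of signal over background). The exceptions were both probes of Peg10, a gene derived from a retrotransposon and needed in the placenta, which were well above background on 0 arrays. Their spots read 0.892 to 1.22 times the local background, and no change can be given. The neighbour that shares its start region with Peg10, Sgce, was likewise well above background on 0 arrays at both of its probes. H19 was the dimmest member tested, at 2.03 to 3.32 times background. The upper end held one probe of Igf2, at 944 to 1290 times background, and one of Dlk1, at 618 to 878 times.

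**Figure D1:**
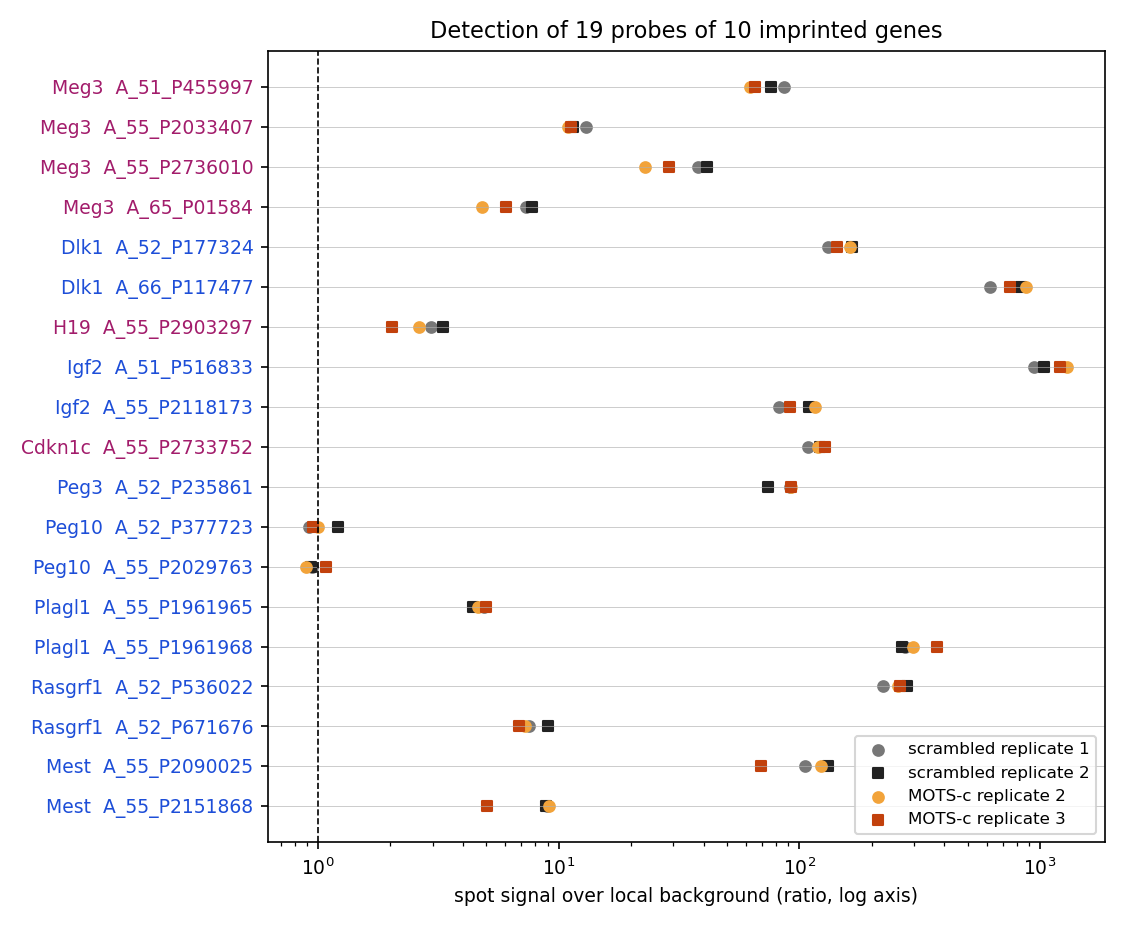
Signal of each spot over its local background (ratio, log axis) for the 19 probes of the 10 genes on the 4 arrays, with maternally expressed genes in magenta and paternally expressed genes in blue. The dashed line marks a ratio of 1. The 2 Peg10 probes lie at 0.892 to 1.22 on all arrays, and every other probe lies at 2.03 or above.

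No imprinted gene passed the test. Over all 35087 probes tested with limma, 0% were called at a Benjamini-Hochberg adjusted p under 0.05 (0 probes, smallest adjusted p = 0.474), and among the 17 member probes the count was also 0. At an unadjusted p under 0.05, 7.85% of all probes (2755) and 2 of the 17 member probes were counted, 1 of Meg3 and 1 of Plagl1. With a change of at least 1.5-fold added, the share was 3.53% of all probes and the count 0 of 17 members. No member changed by 1.5-fold at any p. The 2 MOTS-c arrays did not overlap with the 2 scrambled arrays at 4 of 17 member probes, against 38.0% of all probes. Of these, 2 were higher with MOTS-c (19.4% of all probes) and 2 were lower (18.6% of all). The median size of the difference was 0.19 over member probes and 0.14 over all probes, and the median gap between the 2 arrays of a group was 0.19 (scrambled) and 0.17 (MOTS-c) over members. With 2 arrays against 2, an exact permutation test of a single value cannot go below p = 0.333.

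**Figure D2:**
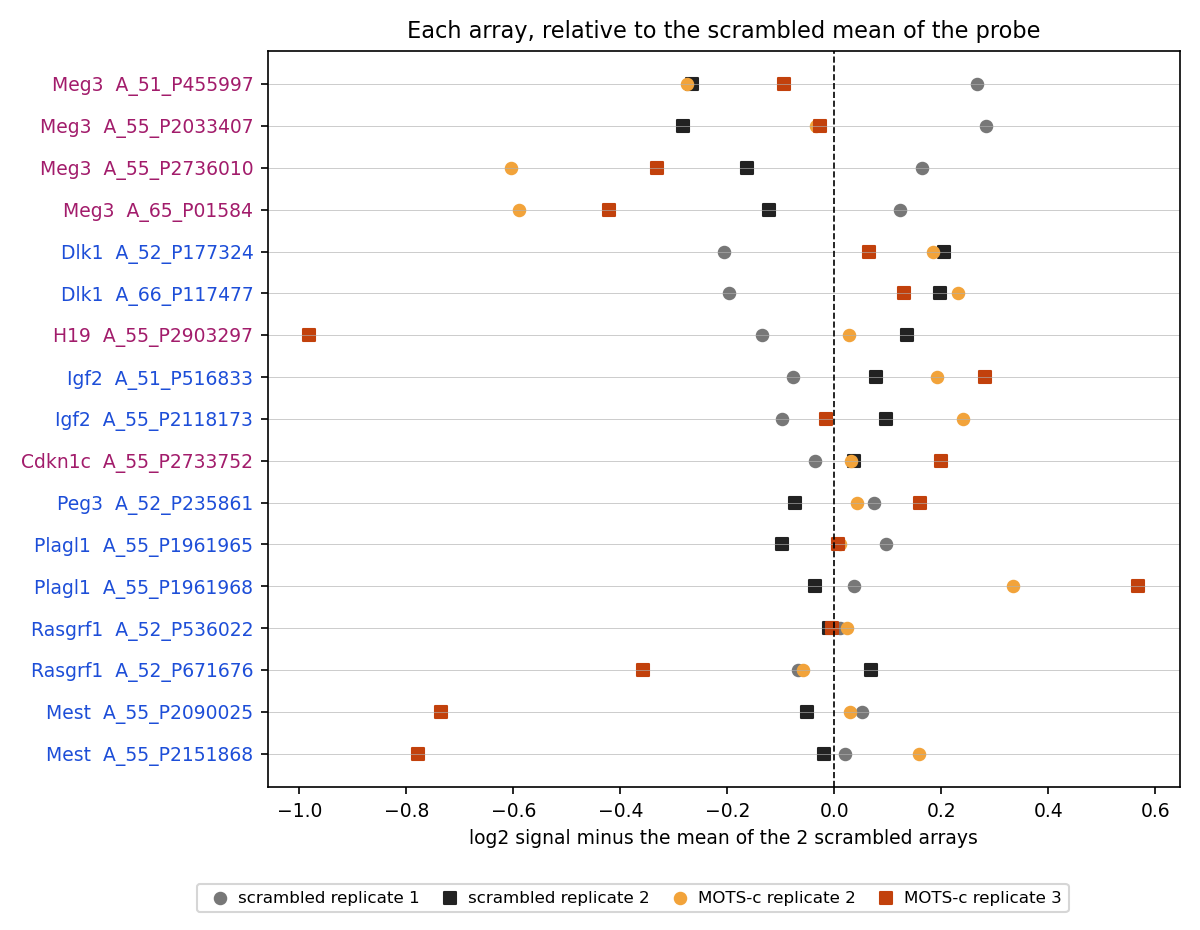
Log2 signal of each array minus the mean of the 2 scrambled arrays, for the 17 probes tested (names in magenta, maternally expressed; in blue, paternally expressed). At the Meg3 probes A_65_P01584 and A_55_P2736010 both MOTS-c arrays lie below both scrambled arrays, at the Plagl1 probe A_55_P1961968 and the Igf2 probe A_51_P516833 both lie above them, and at both Mest probes and H19 a low value of MOTS-c replicate 3 stands alone.

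Among the maternally expressed genes, Meg3 gave the clearest ordering of arrays. Meg3 is a long noncoding RNA whose gene lies downstream of Dlk1 and heads a run of noncoding RNAs and microRNAs. Probe A_65_P01584, designed on transcript NR_003633, read 7.88 (replicate 1) and 7.64 (replicate 2) with the scrambled peptide, and 7.17 (replicate 2) and 7.34 (replicate 3) with MOTS-c. Both MOTS-c values were lower, by 0.51 on average (SE 0.15, n = 2 per group), which is 1.42-fold lower, with a limma adjusted p of 0.558. Probe A_55_P2736010, on the same transcript, read 10.65 and 10.32 with the scrambled peptide and 9.88 and 10.15 with MOTS-c. It was again lower on both MOTS-c arrays, with a difference of −0.47 (SE 0.18, limma adjusted p = 0.647). These 2 probes kept a negative difference when any 1 array was left out, from −0.63 to −0.31 over both.

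The other pair of Meg3 probes, designed on NR_027652, behaved otherwise. Probe A_51_P455997 read 11.89 and 11.36 with the scrambled peptide and 11.35 and 11.53 with MOTS-c, a difference of −0.19 (SE 0.22, limma adjusted p = 0.874). Probe A_55_P2033407 read 8.88 and 8.32 against 8.57 and 8.57, a difference of −0.03 (SE 0.22). In both, the MOTS-c arrays lay within or close to the range of the scrambled arrays, and without scrambled replicate 1 the differences became 0.082 and 0.25. All 4 Meg3 probes had their highest value on scrambled replicate 1, the array on which 19.2% of all probes were highest. The mean of the NR_003633 probes minus the mean of the NR_027652 probes was −1.12 and −0.86 with the scrambled peptide and −1.43 and −1.31 with MOTS-c. The groups did not overlap in this difference, which was lower by 0.38 with MOTS-c, at an exact permutation p of 0.333, the smallest that 2 against 2 can give. This split by transcript was chosen after the values were seen.

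**Figure D3:**
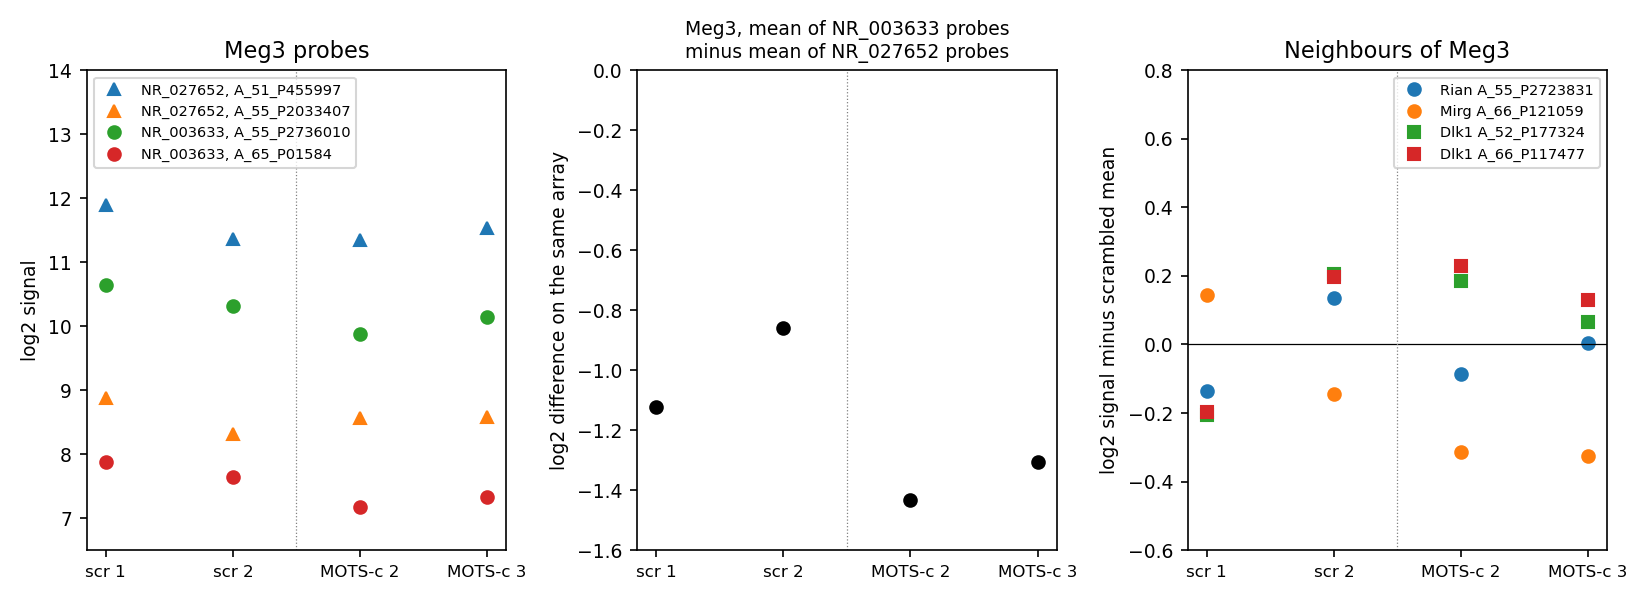
Left, log2 signal of the 4 Meg3 probes on each array (scr, scrambled; circles, NR_003633; triangles, NR_027652). Middle, the mean of the NR_003633 probes minus the mean of the NR_027652 probes on each array, which is −1.12 and −0.86 in the scrambled arrays and lower, at −1.43 and −1.31, in the MOTS-c arrays. Right, log2 signal minus the scrambled mean for Dlk1, Rian and Mirg, where the arrays of the groups do not overlap for Mirg alone among the probes drawn.

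Other transcripts of the Dlk1 and Meg3 locus did not follow Meg3 throughout. Rian, a noncoding RNA that hosts small nucleolar RNAs, read 12.06 and 12.33 against 12.11 and 12.20 with MOTS-c, a difference of −0.04. Mirg, a host of microRNAs at the far end of the cluster, read 10.97 and 10.68 against 10.51 and 10.50. It was lower on both MOTS-c arrays, by 0.32 on average (limma adjusted p = 0.696). Dio3, which inactivates thyroid hormone, overlapped between groups at a dim signal (difference −0.43), and Rtl1 did not pass the filter. Dlk1, a membrane protein that inhibits differentiation, is the paternally expressed gene of the locus. Its probe A_66_P117477 read 14.50 and 14.89 with the scrambled peptide and 14.93 and 14.83 with MOTS-c, a difference of 0.18 (SE 0.18, limma adjusted p = 0.847). Probe A_52_P177324 read 12.15 and 12.57 against 12.55 and 12.43, a difference of 0.12. Both were lowest on scrambled replicate 1, and without that array the differences were −0.016 and −0.081.

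H19, a noncoding RNA that shares enhancers with Igf2 and restrains growth, read 6.02 and 6.29 with the scrambled peptide and 6.19 and 5.18 with MOTS-c. The difference of −0.48 (SE 0.36, limma adjusted p = 0.801) rested on MOTS-c replicate 3, and without that array it was 0.03. With the normexp background correction it was −0.22. Igf2, a growth factor expressed from the paternal copy of the same locus, had 2 probes. Probe A_51_P516833 read 15.01 and 15.16 against 15.28 and 15.37. Both MOTS-c values were higher, by 0.24 (SE 0.13, limma adjusted p = 0.738), which is 1.18-fold. Probe A_55_P2118173 read 11.83 and 12.03 against 12.17 and 11.91, overlapped between groups, and gave 0.11 (SE 0.16), or −0.02 without MOTS-c replicate 2. Ins2, the insulin gene next to Igf2, overlapped between groups, with a difference of −0.05.

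Cdkn1c encodes p57, an inhibitor of cyclin-dependent kinases whose loss is known from focal overgrowth of beta cells. It read 12.20 and 12.28 with the scrambled peptide and 12.27 and 12.44 with MOTS-c, a difference of 0.12 (SE 0.13, limma adjusted p = 0.870). Its maternally expressed neighbour Kcnq1, a potassium channel, went the other way at its brighter probes. Probe A_55_P2086203 of Kcnq1 read 8.07 and 7.83 against 7.36 and 7.44, a difference of −0.55 (limma adjusted p = 0.534), and probe A_55_P2094641 differed by −0.59, also without overlap. Another Kcnq1 probe, well above background on 3 arrays, gave 0.20. The 4 probes of Kcnq1ot1, the paternally expressed antisense RNA of the locus, that were tested lay between −0.04 and 0.07 and overlapped between groups. Slc22a18 had dim probes of opposed sign (0.31 and −0.66), Ascl2 gave 0.20 with overlap, and Phlda2 did not pass the filter.

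Plagl1, a zinc finger transcription factor whose overexpression is linked to transient neonatal diabetes, had the largest positive difference among the members. Probe A_55_P1961968 read 13.14 and 13.06 with the scrambled peptide and 13.43 and 13.67 with MOTS-c. Both MOTS-c arrays were higher, by 0.45 (SE 0.14, limma adjusted p = 0.564), with a 95% interval of 0.08 to 0.83, that is 1.05-fold to 1.77-fold. The difference was 0.34 to 0.57 when any 1 array was left out. The dimmer probe A_55_P1961965 read 6.86 and 6.66 against 6.77 and 6.77, a difference of 0.01 with a 95% interval of −0.34 to 0.36. Both probes carry the same transcript accession, and they did not show the same difference.

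Rasgrf1, an exchange factor that activates Ras and is known to bear on beta cell number, held the steadiest value. Probe A_52_P536022 (NM_001039655) read 13.12 and 13.10 against 13.13 and 13.10, a difference of 0.01 with a 95% interval of 0.812-fold to 1.25-fold. Probe A_52_P671676 (NM_011245) read 7.84 and 7.98 against 7.85 and 7.55, a difference of −0.21 (SE 0.16, limma adjusted p = 0.803) with overlap.

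Mest, a hydrolase-like protein tied to growth and fat storage, differed in 1 array. Probe A_55_P2090025 read 12.15 and 12.05 with the scrambled peptide and 12.13 on MOTS-c replicate 2, but 11.36 on MOTS-c replicate 3. Probe A_55_P2151868 read 8.22, 8.18 and 8.36 on those arrays and 7.43 on MOTS-c replicate 3. The differences of −0.35 (SE 0.28) and −0.31 (SE 0.33) became 0.03 and 0.16 without MOTS-c replicate 3. Its neighbour Copg2 gave −0.03 with overlap, and Klf14 did not pass the filter. A low value of the same array, on which 33.3% of all probes were lowest, recurred in Asb4. Asb4, a gene near Peg10, read 11.65, 12.03, 11.87 and 10.50 in the same order of arrays.

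Peg3, a zinc finger protein that governs maternal care and growth, read 11.55 and 11.40 with the scrambled peptide and 11.51 and 11.63 with MOTS-c, a difference of 0.10 (SE 0.13, limma adjusted p = 0.894). Zim1, the maternally expressed zinc finger gene beside it, was lower on both MOTS-c arrays at both probes. Probe A_55_P1997320 read 8.73 and 8.26 against 7.38 and 7.90, a difference of −0.86 (SE 0.26, limma adjusted p = 0.558), and probe A_55_P2917431 read 6.51 and 5.91 against 4.98 and 5.71, also −0.86. Usp29, which shares a promoter region with Peg3, overlapped between groups (−0.03). Near Peg10, Ppp1r9a gave 0.59 without overlap (limma adjusted p = 0.491), while its second probe, well above background on 2 arrays, gave −0.17. Calcr, further along, gave −0.14 with overlap.

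By parental origin, 5 of the 6 maternal probes (3 genes) had a negative difference, with a median of −0.33, and 8 of the 11 paternal probes (6 genes) a positive one, with a median of 0.10. Of all probes tested, 47.1% were negative and the median was 0.01. Since 4 of the 6 maternal probes belong to Meg3 and the value of H19 rests on MOTS-c replicate 3, the maternal probes are not independent readings. The 11 paternal probes come from 6 genes and are likewise not independent. Among their positive values, Plagl1 A_55_P1961965 gave 0.0082 and Rasgrf1 A_52_P536022 gave 0.0090. Both Dlk1 values were negative without scrambled replicate 1. The median of the maternal probes lay between −0.40 and −0.11 when 1 array was left out, and that of the paternal probes between 0.01 and 0.16.

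**Figure D4:**
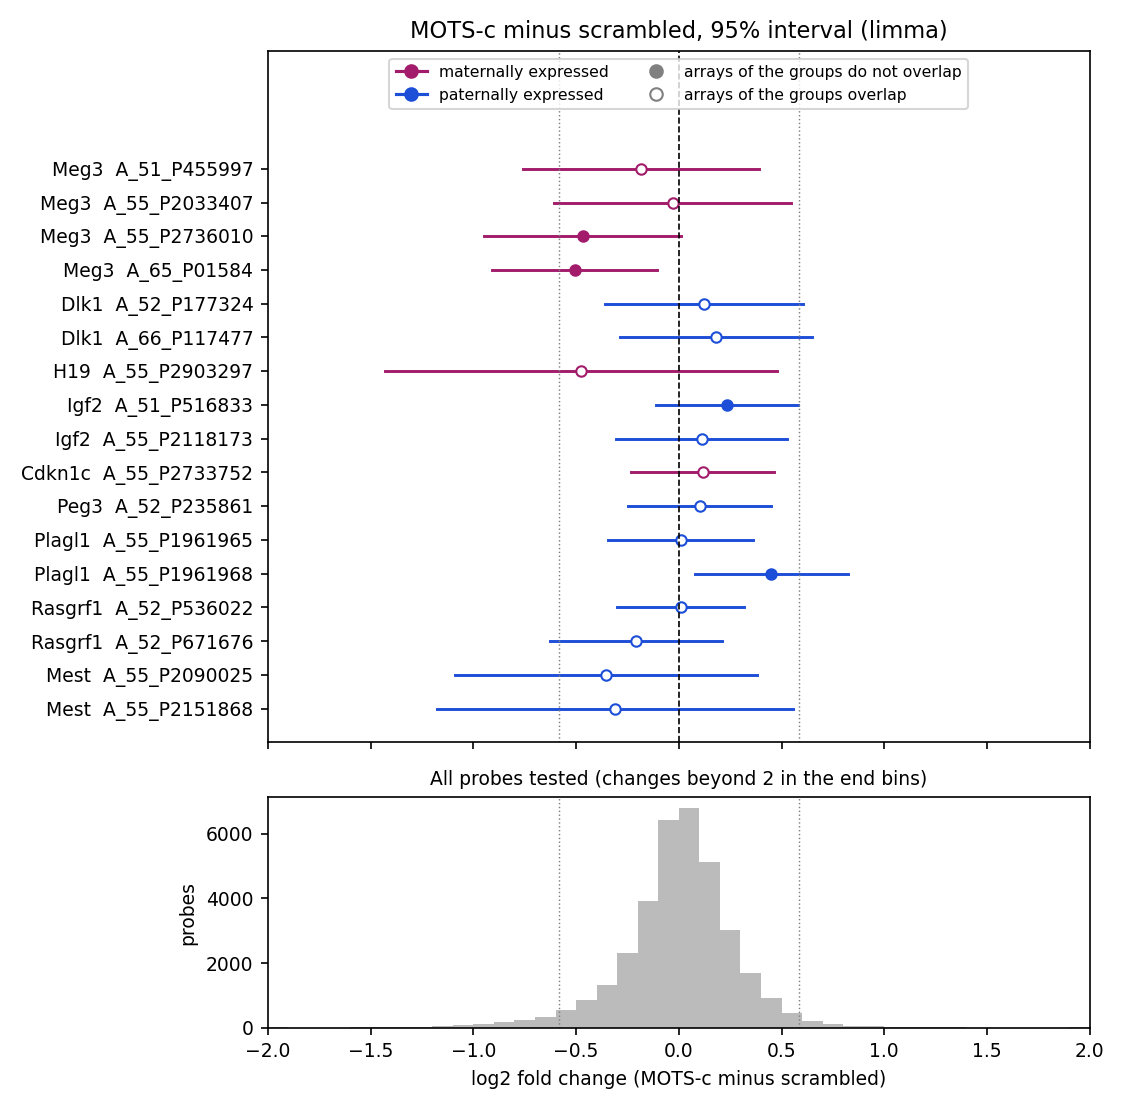
Upper panel, log2 fold change (MOTS-c minus scrambled) with 95% interval from limma for the 17 probes tested, filled where the arrays of the groups do not overlap, with dotted lines at 1.5-fold. Lower panel, the same quantity for all 35087 probes tested. The intervals of 1 Meg3 probe (A_65_P01584, −0.91 to −0.10) and 1 Plagl1 probe (A_55_P1961968, 0.08 to 0.83) leave out 0, and no point reaches 1.5-fold.

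The imprinted neighbours named above came from a list of 18 genes, each followed through its brightest probe. Of these 14 were tested, 0 passed at the adjusted p, 1 was higher (Ppp1r9a) and 2 were lower (Kcnq1 and Zim1) at an unadjusted p under 0.05 (7.85% of all probes), and the median difference was −0.05. Of 25 imprinted genes elsewhere in the genome, 19 were tested and 0 passed at the adjusted p. Their median was −0.04, and the 3 largest differences, taking the brightest probe of each gene where it was well above background on all arrays, were those of Magel2 (−0.30), Ube3a (0.20) and Nap1l5 (0.19). Dimmer probes could differ more, as in H13, where the brightest probe gave −0.04 and A_52_P341161 gave −0.38. At an unadjusted p under 0.05 (7.85% of all probes), 1 of the 19 was lower. That was Grb10, an adaptor that dampens insulin and IGF signaling, which was well above background on 2 arrays only, read 4.54 and 4.75 against 3.84 and 2.34, and was singled out after its value was seen.

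The factors that keep imprints were measured at 12 of 14 genes, with a median of 0.02. Of the 12, 0 passed at an unadjusted p under 0.05, against 7.85% of all probes. Zfp57 did not pass the filter. Zfp445, which acts beside it, gave 0.37 with overlap. Uhrf1, which brings the maintenance methyltransferase to DNA, read 14.45 and 14.38 against 14.15 and 14.05, a difference of −0.32 (limma adjusted p = 0.653). Its second probe gave −0.29 without overlap. The de novo methyltransferase Dnmt3a gave −0.29, but −0.08 with overlap at its second probe. Dnmt1 itself gave 0.05.

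Among receptors and binding proteins of IGF2, 9 of 13 genes were tested. At an unadjusted p under 0.05, 1 was higher and 0 were lower, against 7.85% of all probes. Igf1r, the receptor through which IGF2 signals growth, read 11.30 and 11.64 against 12.35 and 11.99 at probe A_55_P2736764, a difference of 0.70 (SE 0.20, limma adjusted p = 0.543). Its probe A_51_P318365 read 8.34 and 8.83 against 9.42 and 9.05, a difference of 0.65 (limma adjusted p = 0.614), so that both MOTS-c arrays were higher at both probes. Igf2r, itself imprinted and a sink for IGF2, gave 0.03 with overlap, Igf2bp3 gave 0.43 and Igfbp2 −0.22. Of 11 NOTCH pathway genes around DLK1, 10 were tested, with 1 higher and 1 lower at an unadjusted p under 0.05, against 7.85% of all probes. The ligand Jag1 read 7.36 and 7.07 against 8.02 and 7.84 (difference 0.71, limma adjusted p = 0.509), the receptor Notch4 read 10.39 and 10.49 against 9.85 and 9.25 (difference −0.89, limma adjusted p = 0.534), and Notch1 gave 0.51 with overlap.

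Of 11 targets and relatives of CDKN1C, 9 were tested and 0 passed at an unadjusted p under 0.05 (7.85% of all probes). The largest differences were those of the cyclins Ccna2 (0.29) and Ccne2 (0.24), and the list median was 0.18. Of 8 targets and relatives of RASGRF1, all were tested, and 1 was lower at an unadjusted p under 0.05, against 7.85% of all probes. Rasgrf2, the closest relative of Rasgrf1, read 12.07 and 12.18 against 11.77 and 11.51, a difference of −0.48 (SE 0.15, limma adjusted p = 0.563), and its second probe differed by −0.59 without overlap. Nras gave 0.34, but 0.06 with overlap at its second probe, and Sos1 gave 0.31. Around PLAGL1, 2 of 3 genes were tested: Adcyap1r1, its known target, gave −0.26 at a dim signal and Plagl2 gave 0.09.

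Markers of other cells that an islet preparation can hold were read beside these values, because H19, Igf2, Meg3 and Dlk1 are also expressed in stromal and other cells. In bulk RNA, fewer cells of a type and less RNA per cell cannot be told apart. Of 7 mesenchymal markers 2 were tested, and Pdgfrb, Col1a1, Col3a1, Dcn and Lum did not pass the filter. Sums ran over all markers of a list that have a probe, without the filter and not in log units. The summed mesenchymal signal was 232 and 259 with the scrambled peptide and 195 and 167 with MOTS-c. Pdgfra read 6.37 and 5.76 against 5.39 and 4.65. The other mesenchymal marker tested, Col1a2, was brighter and overlapped between groups, with a difference of −0.30. The summed signal of 8 acinar markers, of which 3 were tested, was 1018 and 1215 against 723 and 512. That of 5 endothelial markers was 1952 to 2440 with the scrambled peptide and 1918 to 2303 with MOTS-c, that of 5 ductal markers 167 to 254 against 157 to 216, that of 5 macrophage markers 4060 to 5313 against 3452 to 4174, and these overlapped between groups. The lymphocyte markers overlapped as well, at 383 to 457 against 393 to 400, and those of Schwann cells were lower with MOTS-c, at 230 to 246 against 156 to 204. Sums are not given for beta and delta cells, because they consist mostly of hormone genes so bright that quantile normalization fixes their values by rank. The sum of 4 alpha cell markers was 57704 to 61242 against 61239 to 62163. That of PP cells (Ppy alone, well above background on 3 arrays) was 14.2 to 23.6 against 21.7 to 23.3. Both overlapped between groups. Among 7 beta cell markers tested, 6 did not overlap between groups, against 38.0% of all probes, and 0 passed at the adjusted p. Of the 6, 3 were higher with MOTS-c (19.4% of all probes) and 3 were lower (18.6% of all). Slc2a2 read 5.23 and 5.26 against 3.81 and 4.02, a difference of −1.33 (limma adjusted p = 0.474), and Pdx1 differed by −0.28. Ins1 (−0.04), a hormone gene bright enough to be fixed by rank, was also lower. Iapp (0.07), Mafa (0.16) and Nkx6-1 (0.12) were higher. The sums of the dividing cell markers overlapped between groups. The part of any of these in the differences of the imprinted genes was not tested.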

How the data were processed

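RNA of 4 samples was hybridized to one-color Agilent arrays. The authors labeled amplified RNA with Cy3 and read the scans with Feature Extraction 11.0.1.1. Their deposited intensity values have the local background removed array by array but no scaling between arrays, and spot flags, also deposited, mark background, outliers and saturation. A second deposited table holds the same intensity values to 3 significant digits (ratio to the scanner values 0.995 to 1.00). Samples were grouped by the treatment label. The members and gene lists were chosen with earlier results of these data known.

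After removal of 3671 control spots per array and of outlier spots, intensities were taken to log2 and averaged over the spots of a probe. The 35087 probes flagged above background on 2 or more arrays were kept and quantile normalized. Each member probe had 1 spot. limma 3.58.1 in R 4.3.3 compared the groups, two-sided, with Benjamini-Hochberg adjustment over all probes tested. The script was tested on simulated data. The residual degrees of freedom were 2, with 2.64 added by limma, and 3 probes were fitted on fewer than 4 arrays, none of them a member. The number of arrays limits the precision. Names came from the RefSeq table of GRCm38.p6. Probe positions are not given, since the design of the array uses another build. A listed gene was followed through its brightest probe. Beyond all members and genes sharing a locus with one, at most the 3 largest differences per list were named. Igf2r, Grb10, H13, Dnmt1, Zfp57 and second probes were named outside this rule, some after their values were seen.

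Alternatives were limma with a trend, the methods' t-test, normexp (offset 50), a shift to the 75th percentile, the authors' value table, no filter or one of all 4 arrays, averaging a gene's probes, and leaving out each array.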

Additional observations from a re-analysis of the deposited data

How the results depend on the processing

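The count of imprinted probes at an adjusted p under 0.05 was 0 under every alternative run. Over all probes it was also 0, except 1 with the methods' t-test. At an unadjusted p under 0.05, 2 imprinted probes became 4 with normexp or with a trend in limma and 0 with the methods' t-test. Over all probes, 2755 became 3112 with normexp, 2945 with a trend and 2313 with the t-test. The 4 imprinted probes without overlap (38.0% of all probes) became 7 with normexp (39.3% of all). The 1239 probes at an unadjusted p and 1.5-fold became 406 with normexp and 458 with the t-test. The Rasgrf1 difference of 0.01 became −0.018 with the 75th percentile shift and −0.10 as the mean over both probes. Under normexp with all arrays kept, H19 moved from −0.48 to −0.22, Dlk1 A_66_P117477 from 0.18 to 0.11, Peg3 from 0.10 to 0.045 and Rasgrf1 A_52_P536022 from 0.01 to 0.13. Of 119 probe differences recomputed with all arrays kept, the shifted Rasgrf1 value was the 1 that changed sign. The 119 include the methods' t-test and limma with a trend, which change the test and not the difference, so no sign could change there. The authors' value table holds the same intensities rounded.

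With 1 array left out, the lone array of a group was assumed to vary like the other group. The adjusted count stayed at 0. The ranges were 1374 to 3264 probes at an unadjusted p and 1.5-fold (highest without MOTS-c replicate 2), 0 to 4 imprinted probes at an unadjusted p (0 without scrambled replicate 1, 4 without MOTS-c replicate 2), 0 to 3 of these at 1.5-fold (3 without MOTS-c replicate 2, 2 without MOTS-c replicate 3 or scrambled replicate 2), and 9 to 12 imprinted probes without overlap, where fewer arrays leave fewer chances to overlap. Over all probes, 63.9% to 75.8% were without overlap in these runs. Of 68 probe differences with 1 array left out, 11 changed sign. Ranges that crossed 0 were −0.45 to 0.082 (Meg3 A_51_P455997), −0.31 to 0.25 (Meg3 A_55_P2033407), −0.081 to 0.33 (Dlk1 A_52_P177324), −0.016 to 0.37 (Dlk1 A_66_P117477), −0.98 to 0.028 (H19), −0.018 to 0.24 (Igf2 A_55_P2118173), −0.088 to 0.10 (Plagl1 A_55_P1961965), −0.0039 to 0.024 (Rasgrf1 A_52_P536022), −0.74 to 0.029 (Mest A_55_P2090025) and −0.77 to 0.16 (Mest A_55_P2151868). The cause of these changes was not tested. No paired analysis was possible because the groups share only 1 replicate number, and a slide block was not possible because all arrays lie on 1 slide. Peg10 could not be measured above background, and for H19 the low signal limits the value.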
